A study of Mus musculus with 6 samples.

Results

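The ribosomal protein genes code for the protein part of the cytosolic ribosome, and their surroundings were read here in contact maps of mouse embryonic stem cells. The group held every autosomal protein-coding gene whose symbol is Rpl or Rps with a number, plus Rplp0, Rplp1, Rplp2 and Rpsa. Pseudogene names, the Rps6k kinases, the ribosomal protein-like genes and genes on the X chromosome were left out, which kept 77 of 20661 autosomal protein-coding genes. Each gene was read at the 50 kb bin that holds its lower coordinate in mm10, and 1 bin held a pair of them, so the 77 genes stood for 76 bins. There were 40 genes of the large subunit, 30 of the small subunit (Rpsa among them) and the 3 genes of the stalk. The symbol rule also took in 4 genes that do not code for a standard ribosomal protein, namely Rps19bp1, a binding partner of RPS19, and Rps27rt, Rpl37rt and Rps23rg1, which are named as retrogene copies.

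The measurement was Hi-C, in which neighbouring DNA ends in fixed nuclei are joined and sequenced, so that a count for a pair of bins reports how often they lay together. Nuclei of strain 129 embryonic stem cells were cut with MboI. The 3 Del8 libraries came from cells that express GFP-CTCF-Del8, a CTCF protein without zinc finger 8, and the 3 WT libraries are labelled wild type. The design text speaks of cells expressing GFP-CTCF as the counterpart of the mutant, and the labels do not settle whether the WT libraries carry that tag or how much untagged CTCF the Del8 cells hold. It also speaks of biological replicates, without naming cultures or clones.

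A ribosome is built from a large subunit, which forms peptide bonds, and a small subunit, which reads the messenger RNA, and the stalk on the large subunit recruits the elongation factors. Ribosomal protein genes are short, highly transcribed in growing cells and spread over nearly all chromosomes, and their messages start with a run of pyrimidines through which mTOR signalling adjusts their translation. CTCF is a zinc finger protein that halts cohesin on DNA and so marks many boundaries between contact domains, and active gene starts are another common place of boundaries.

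The libraries held 66266759, 46925260 and 38088173 contacts in Del8 and 24038030, 24512722 and 36233407 in WT. Between 26.4% and 26.6% of contacts lay within a bin in the Del8 libraries, against 31.2%, 30.7% and 22.3% in WT replicates 1, 2 and 3, so WT replicate 3 stood on the other side of the Del8 libraries from WT replicates 1 and 2. Many bins had lost their contacts in some libraries, and 27819 of 47875 autosomal bins were usable under a screen that asks for even coverage across the libraries. Of the 76 ribosomal protein gene bins 74 were usable (97.4%), against 79.9% of all bins with a gene start. The bins of Rps20 and Rps9 were not. The usable ribosomal protein gene bins had a median of 2151 to 3514 contacts in the Del8 libraries and 1489 to 1989 in the WT libraries, and counting error was smallest in Del8 replicate 1.

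Ribosomal protein genes were short, with a median length of 3.23 kb against 17.5 kb for all autosomal protein-coding genes. Small nucleolar RNA genes lay inside 28 of the 77 (36.4%), against 1.72% of all autosomal protein-coding genes. These are RNAs that guide the modification of ribosomal RNA, and they are cut from introns of their host genes. Rpl4 held 5 of them, and Rpl7a held 4. The usable bins of ribosomal protein genes held 2.88 gene starts on average, against 1.51 in all usable bins with a gene start, so a value read at 50 kb belongs to a ribosomal protein gene together with its neighbours.

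RefSeq promoter windows (GRCm38.p6, 250 bases before to 50 from the start) were at hand for 57 of the 77 genes. A run of 6 or more pyrimidines that begins with C within 10 bases of the start, read on the gene's strand, was present in 29 of the 57 (50.9%), against 19.6% of 16456 autosomal promoters. The ETS factor element CCGGAAG, searched on both strands, was in 22 of the 57 (38.6%), against 12.3% of all promoters. The YY1 element AGATGGC was in 7 of the 57 (12.3%), against 6.20%, and AGGGGGC, a stretch of the CTCF core, was in 7 of the 57 (12.3%), against 12.9%. The first of these last 2 elements can also be part of a CTCF core. The promoters below belong to the 3 genes with the largest rise and the 3 with the largest fall of the insulation score among those with a window that can be shown here. They run 5′ to 3′ from 60 bases before the start through 30 bases from it, and capitals mark the stretch that the pyrimidine rule counts, which begins no more than 10 bases before the start.
Rps26 (chr10:128626477-128626566, minus strand): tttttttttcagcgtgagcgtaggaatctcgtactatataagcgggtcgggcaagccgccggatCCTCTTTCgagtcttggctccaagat
Rps28 (chr17:33824533-33824622, minus strand): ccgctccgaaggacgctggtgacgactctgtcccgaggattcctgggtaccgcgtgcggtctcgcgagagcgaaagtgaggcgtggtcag
Rpl22 (chr4:152324376-152324465, plus strand): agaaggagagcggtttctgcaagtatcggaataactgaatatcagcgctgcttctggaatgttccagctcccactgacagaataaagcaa
Rpl7a (chr2:26910747-26910836, plus strand): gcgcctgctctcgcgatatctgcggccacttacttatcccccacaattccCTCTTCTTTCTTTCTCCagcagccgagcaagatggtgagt
Rps24 (chr14:24490618-24490707, plus strand): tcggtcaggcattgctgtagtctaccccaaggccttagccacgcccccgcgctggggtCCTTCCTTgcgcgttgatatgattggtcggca
Rpl35 (chr2:39005102-39005191, minus strand): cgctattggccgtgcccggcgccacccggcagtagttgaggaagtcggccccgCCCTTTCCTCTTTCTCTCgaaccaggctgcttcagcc
The counted stretches were 8 bases long in Rps26, 17 in Rpl7a, where pyrimidines also precede the capitals, 8 in Rps24 and 18 in Rpl35, while the windows of Rps28 and Rpl22 held none that meets the rule.

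Ribosomal protein genes lay at low points of the insulation score in Del8 and WT cells alike. The score is the balanced contact between the 500 kb before and the 500 kb after a bin (a 500 kb square of the map), averaged, divided by the chromosome's mean and put on a log2 scale, so that a low score means little contact across the bin. Of 65 ribosomal protein gene bins with a score, 60 (92.3%) averaged below 0 over the 6 libraries, against 71.6% of 9288 scored bins with a gene start and 54.1% of all 22037 scored bins. Their median score was -0.42, against -0.18 in bins with a gene start and -0.29 in the 440 scored bins with 4 or more gene starts. Low scores were not particular to them. Among the gene lists taken up further below, the median was -0.46 for ribosome biogenesis genes and -0.39 for translation factors. It was -0.37 for regulators, -0.32 for ribosomal protein-like genes and -0.30 for mitochondrial ribosomal proteins.

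Of the 65 bins, 15 (23.1%) were themselves boundaries, that is local minima of the score on the map summed over the libraries, against 9.74% of bins with a gene start, 12% of bins with 4 or more gene starts and 6.04% of all scored bins. Counting neighbours, 29 of 65 (44.6%) lay within 50 kb of a boundary, against 24.6% of bins with a gene start. Usable bins without a score, because less than 50% of the square around them was usable, included those of Rpl7, Rpl15, Rpl24, Rpl37, Rps3a1, Rps12, Rps23 and Rps27a.

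**Figure D1:**
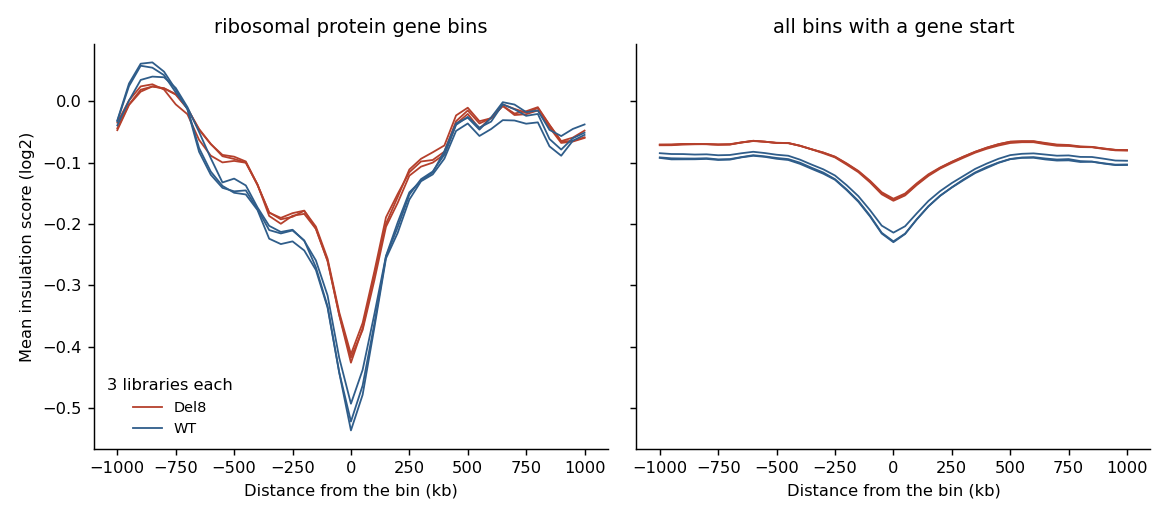
Mean insulation score (log2) against the distance from the bin in kb, at the ribosomal protein gene bins (left) and at all bins with a gene start (right), with 1 line for each of the 3 Del8 and 3 WT libraries. The 3 Del8 lines bottom out at -0.43 to -0.41 at the ribosomal protein gene bins and the 3 WT lines at -0.54 to -0.49; at all bins with a gene start the low point is about -0.16 in Del8 and -0.23 to -0.21 in WT.

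The dip at ribosomal protein genes was shallower in Del8 cells. The mean score over the 65 bins was -0.43, -0.41 and -0.42 in the Del8 libraries, against -0.54, -0.52 and -0.49 in the WT libraries. Relative to the mean 250 kb to either side, the dip was -0.27 ± 0.01 in Del8 and -0.33 ± 0.02 in WT (SD, n = 3 libraries each). The groups did not overlap. At all bins with a gene start the same dip was -0.07 in Del8 and -0.09 in WT. The difference, Del8 minus WT, was 0.06 at ribosomal protein gene bins and 0.03 at all bins with a gene start. So the dip and its absolute difference were larger at ribosomal protein gene bins. In proportion to the WT dip, the difference was smaller there than at all bins with a gene start. This is a description without a test.

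Bin by bin, the score was higher in Del8 at 35 of 65 ribosomal protein gene bins (53.8%) and lower at 14 (21.5%) at an adjusted p under 0.05 (limma with Benjamini-Hochberg adjustment over all 22037 scored bins), where the background over all bins was 32.4% higher and 30.6% lower. The median difference, Del8 minus WT, was 0.11 over the 65 bins and 0.00 over all scored bins. The Del8 libraries lay wholly above the WT libraries at 37 of the 65 bins and wholly below at 16. Over all scored bins these shares were 34.3% and 32.8%, so groups without overlap were common everywhere. Of the ribosomal protein gene bins that passed the test, all but 1 had groups without overlap. At the bins named below, a lack of overlap therefore adds little to the call. Bins with a gene start were higher at 42.9% and lower at 20.1%, and bins with 4 or more gene starts at 49.3% and 14.8%, so gene-rich bins as a whole also stood on the higher side. The same held for low-scoring bins. Among bins averaging below -0.5, the score was higher in Del8 at 15 of 26 ribosomal protein gene bins (57.7%) and at 58.2% of all such bins. Between -0.5 and 0, it was higher at 18 of 34 ribosomal protein gene bins (52.9%) and at 41.1% of all such bins. It was lower at 10 of the 34 (29.4%) and at 19.8% of all, so both shares stood above those of all bins. Bins with a gene start in that range were higher at 44.6% and lower at 17.6%. At 0 or above, 2 of 5 ribosomal protein gene bins were higher and 1 lower, against 18.1% and 45.9% of all such bins. Below -0.5, 3 of the 26 were lower (11.5%), against 8.81% of all.

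The calls rest on the screen of bins. Under a looser screen, which asks only for 20 contacts in each library, none of 74 ribosomal protein gene bins and none of 36012 scored bins passed the test, with 18 ribosomal protein gene bins and 5294 of all bins at an unadjusted p under 0.05, and 11 of the 49 called bins turned their sign. Without WT replicates 1 and 2, the counts were 30 higher and 15 lower, in a fit that has 1 WT library left and assumes that it varies like the Del8 libraries. The size of the square also mattered for single genes. Of the called bins, 36 of 49 passed again with a 250 kb square, and 35 of the 43 that could be scored passed in the same direction with a 1 Mb square.

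**Figure D2:**
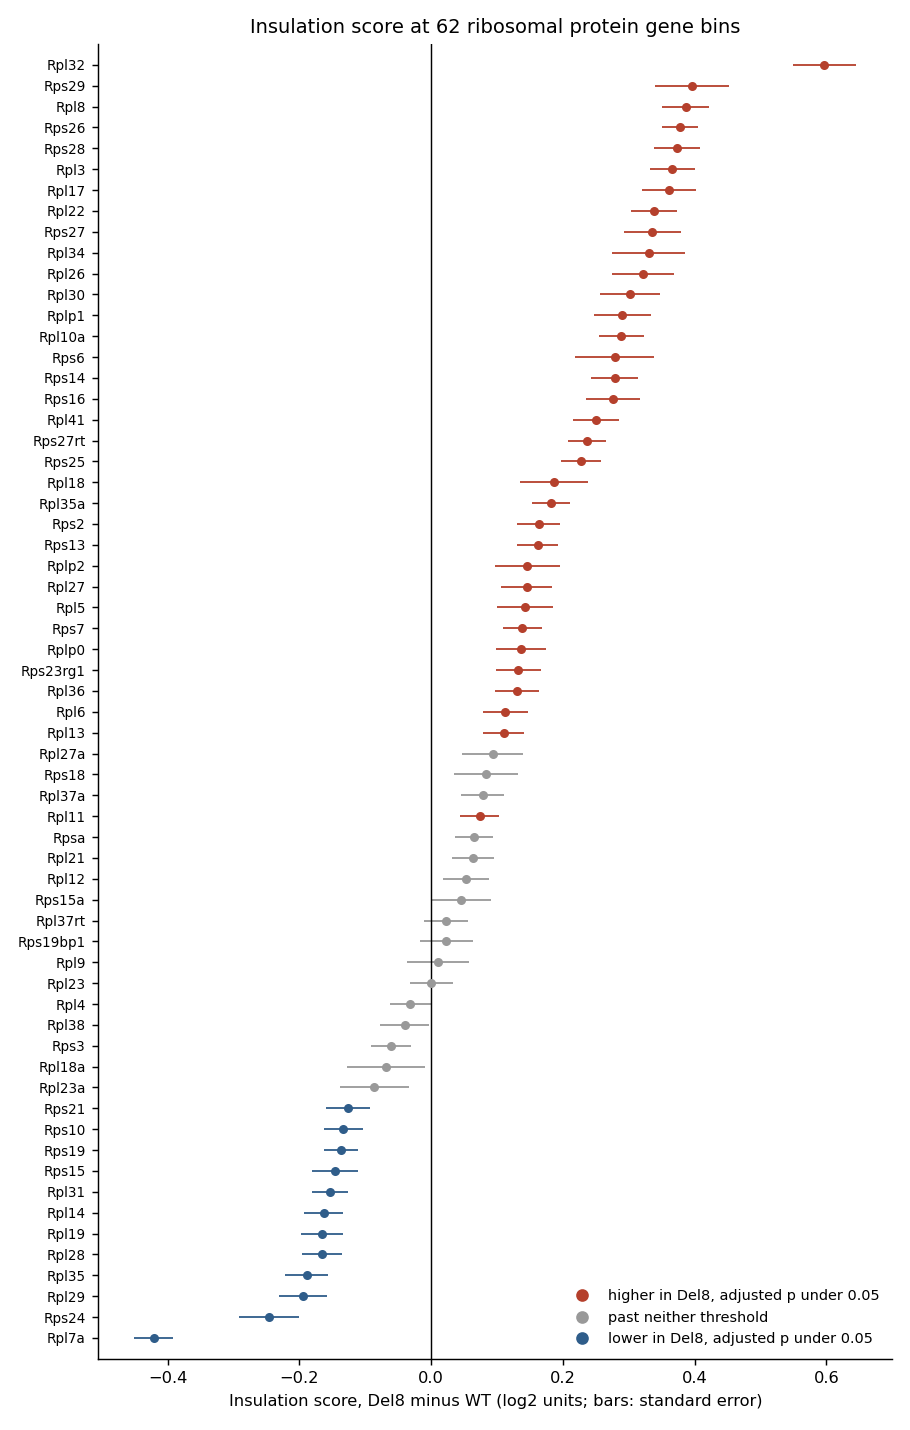
Difference of the insulation score, Del8 minus WT, in log2 units on the horizontal axis, for 62 of the 65 scored ribosomal protein gene bins, 1 row each; points are the estimates, bars the standard errors and colours the calls. Differences run from -0.42 at Rpl7a to 0.60 at Rpl32, with 34 of the drawn bins higher in Del8 and 12 lower.

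By role, 19 of 36 scored large subunit bins were higher in Del8 and 7 lower, 12 of 23 small subunit bins were higher and 7 lower, and all 3 stalk bins were higher, where 1 bin with a gene of each subunit counts in both. Differences spanned -0.42 to 0.60 in the large subunit, -0.25 to 0.40 in the small subunit and 0.14 to 0.29 in the stalk. Of the 4 genes that are not standard ribosomal protein genes, Rps27rt and Rps23rg1 rose, by 0.24 and 0.13, and Rps19bp1 and Rpl37rt differed by 0.02 each without passing the test. Without WT replicates 1 and 2 the difference at Rps23rg1 was 0.06, with an adjusted p from limma of 0.17.

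The largest rise was at Rpl32, a large subunit protein gene (chr6:115805514-115808743). Its scores were -0.55, -0.54 and -0.47 in the Del8 libraries, against -1.23, -1.06 and -1.07 in the WT libraries. Every Del8 library lay above every WT library, and the difference of 0.60 ± 0.05 (SE; adjusted p from limma 1.8e-06) is 1.51 times as much balanced contact across the bin. The bin lay 50 kb from a boundary.

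Rpl8 codes for a protein next to the peptidyl transferase centre (chr15:76904071-76906318), and its bin was a boundary. Its scores were -0.28, -0.26 and -0.27 in the Del8 libraries, against -0.73, -0.63 and -0.61 in the WT libraries, a difference of 0.39 ± 0.03 (SE; adjusted p from limma 3.9e-06). Rpl3, on the same chromosome (chr15:80077781-80083406), codes for another protein that reaches towards that centre. Its scores were -0.47, -0.55 and -0.51 in Del8 and -0.87, -0.87 and -0.89 in WT, a difference of 0.37 ± 0.03. Both genes had Del8 libraries wholly above the WT libraries.

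The other large subunit genes among the 10 largest rises were Rpl17, whose protein lines the exit tunnel, Rpl22 and Rpl34. At Rpl17 the score averaged -0.60 ± 0.05 in Del8 and -0.96 ± 0.06 in WT (SD, n = 3 each). At Rpl22 it averaged -0.18 ± 0.04 in Del8 and -0.52 ± 0.05 in WT, and at Rpl34 -0.85 ± 0.10 in Del8 and -1.18 ± 0.07 in WT. None of these 3 pairs of groups overlapped, as at all but 1 of the called bins.

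In the small subunit the largest rise was at Rps29, which codes for a small zinc-binding protein (chr12:69157722-69159186) and whose bin was a boundary. Its scores were -0.97, -0.84 and -0.90 in the Del8 libraries, against -1.40, -1.28 and -1.21 in the WT libraries, a difference of 0.40 ± 0.06 (SE; adjusted p from limma 9.0e-05). Rps26 codes for a protein at the exit of the messenger RNA channel (chr10:128624529-128626506). Its scores were -0.03, -0.05 and -0.05 in Del8 and -0.42, -0.43 and -0.40 in WT, a difference of 0.38 ± 0.03, with the smallest standard error of these 10 rises. Rps28 scored -0.57, -0.54 and -0.53 in Del8 and -0.89, -0.91 and -0.96 in WT. Rps27, another zinc-binding protein gene, averaged -0.51 ± 0.04 in Del8 and -0.84 ± 0.08 in WT (SD, n = 3 each). All 4 had Del8 libraries above the WT libraries.

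**Figure D3:**
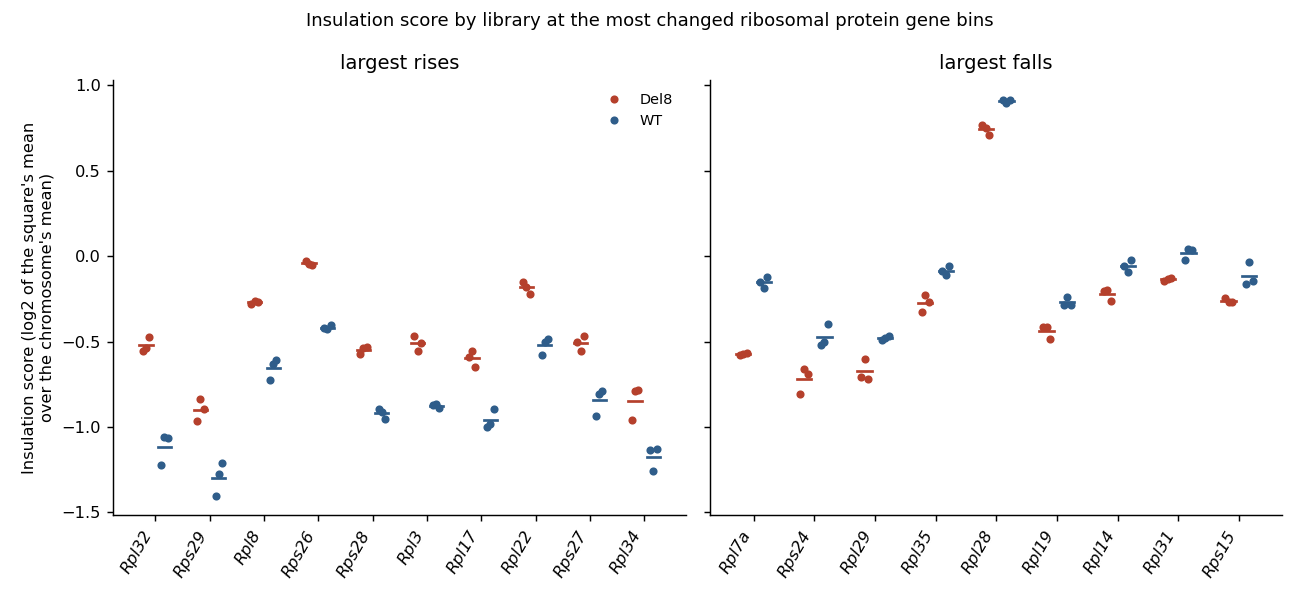
Insulation score (log2) of each library at the 10 ribosomal protein gene bins with the largest rise (left) and 9 of the 10 with the largest fall (right), Del8 points left of WT points at each gene; points are libraries and short lines the means of 3. At none of the 19 bins do the Del8 and WT libraries overlap, as at Rpl32 with -0.55 to -0.47 in Del8 and -1.23 to -1.06 in WT. The bins were picked for the size of their difference. Over all scored bins the Del8 libraries lie wholly above WT at 34.3% and wholly below at 32.8%.

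All 3 stalk genes rose. Rplp1 averaged -1.02 ± 0.02 in Del8 and -1.31 ± 0.01 in WT (SD, n = 3 each), a difference of 0.29, and its bin was a boundary. Rplp0, whose protein anchors the stalk, averaged -0.85 ± 0.02 in Del8 and -0.98 ± 0.03 in WT, a difference of 0.14. Rplp2 averaged -0.71 ± 0.09 in Del8 and -0.86 ± 0.07 in WT, a difference of 0.15 at which the groups overlapped, and leaving out a library at a time took its adjusted p from limma to 0.10 at most. Under the looser screen of bins the difference turned to -0.09 at Rplp0 and to -0.005 at Rplp2, without passing the test. With a 1 Mb square, Rplp0 at 0.06 and Rplp2 at 0.08 did not pass either (adjusted p from limma 0.13 and 0.056), nor did they without WT replicates 1 and 2 (0.063 and 0.20), and Rplp2 did not with a 250 kb square (0.098).

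The largest fall was at Rpl7a, a large subunit gene of the Surf cluster, whose bin also holds the starts of Surf1, Surf2, Surf4, Med22 and Stkld1 (chr2:26910685-26913312). Its scores were -0.58, -0.57 and -0.57 in the Del8 libraries, against -0.15, -0.19 and -0.12 in the WT libraries. The difference was -0.42 ± 0.03 (SE; adjusted p from limma 7.0e-07), or 0.747 times the balanced contact across the bin. The bin lay 50 kb from a boundary. Under the looser screen of bins the difference turned to 1.43, without passing the test.

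Rps24, a small subunit gene that is mutated in some patients with Diamond-Blackfan anaemia (chr14:24490678-24496960), scored -0.80, -0.66 and -0.69 in Del8 and -0.52, -0.50 and -0.39 in WT. Its bin was a boundary, the groups did not overlap, and the score differed by -0.25 ± 0.05 (SE), with an adjusted p from limma of 0.0006. With a 250 kb square the difference was -0.12 and did not pass (adjusted p from limma 0.31). Rps15 was another small subunit gene among the 10 largest falls, with -0.26 ± 0.01 in Del8 and -0.11 ± 0.07 in WT (SD, n = 3 each).

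The other 6 of the 10 largest falls were large subunit genes, with differences from -0.20 at Rpl29 to -0.15 at Rpl31. Rpl35, whose protein sits at the exit of the peptide tunnel, averaged -0.27 ± 0.05 in Del8 and -0.09 ± 0.02 in WT (SD, n = 3 each). Rpl19 averaged -0.44 ± 0.04 in Del8 and -0.27 ± 0.03 in WT, and Rpl14 -0.22 ± 0.03 in Del8 and -0.06 ± 0.03 in WT. Rpl28 stood apart in level, with 0.74 ± 0.03 in Del8 and 0.91 ± 0.01 in WT, the highest scores of any ribosomal protein gene bin and so a place inside a domain. In all 6 the Del8 libraries lay below the WT libraries. Under the looser screen of bins the differences turned to 0.38 at Rpl35 and 3.49 at Rpl31, without passing the test. Rpl35 at -0.02 with a 250 kb square (adjusted p from limma 0.82) and Rpl31 at -0.01 with a 1 Mb square (0.61) did not pass either.

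Among the 15 ribosomal protein gene bins that were boundaries, 7 rose and 3 fell, against 48.3% and 15.9% of all 1330 boundaries. The 7 were Rps29, Rpl8, Rpl26, Rplp1, Rps6, Rpl18 and Rps2. Rpl26 scored -1.07, -0.96 and -0.97 in Del8 and -1.34, -1.31 and -1.30 in WT. Rps6, the substrate of the S6 kinases, averaged -0.31 ± 0.08 in Del8 and -0.59 ± 0.14 in WT (SD, n = 3 each). Rpl18 averaged -0.78 in Del8 and -0.96 in WT, and Rps2 -0.57 in Del8 and -0.74 in WT. With a 250 kb square Rps6, at a difference of 0.14, did not pass (adjusted p from limma 0.20), and Rpl18 did not with a 250 kb square (0.059) or a 1 Mb square (a difference of 0.07, 0.17).

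Rps24 was among the 3 boundaries that fell. The remaining 5, Rpl12, Rpl27a, Rpl38, Rps3 and Rps19bp1, had differences from -0.06 at Rps3 to 0.09 at Rpl27a that did not pass the test. Rpl38, which has a known part in the translation of Hox messages, averaged -0.73 in Del8 and -0.69 in WT.

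The lowest score of all was at Rps18, with -1.28, -1.22 and -1.25 in Del8 and -1.36, -1.35 and -1.29 in WT, a difference of 0.08 with an adjusted p from limma of 0.15. Rpsa, the small subunit protein also described as a laminin receptor, scored -0.39, -0.40 and -0.36 in Del8 and -0.45, -0.47 and -0.44 in WT. Its groups did not overlap, but the difference of 0.07 had an adjusted p from limma of 0.069. Neighbouring ribosomal protein genes share part of their squares and are not separate evidence. Rpl41 and Rps26, 100 kb apart, rose by 0.25 and 0.38 (with a 250 kb square Rpl41 was at 0.14, adjusted p from limma 0.052), whereas Rps28 rose by 0.37 and Rps18, 150 kb away, did not pass the test. Rpl3 rose and Rps19bp1, 200 kb away, did not pass.

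Other genes of the pathway also had more bins higher than lower in Del8, as had bins with a gene start as a whole. The counts of these lists are given without a test, beside 32.4% higher and 30.6% lower over all bins. Bins with a gene start stood at 42.9% and 20.1%, and bins with 4 or more gene starts at 49.3% and 14.8%. Bins of the mitochondrial ribosomal proteins, which build a separate ribosome, were higher in Del8 at 36 of 66 (54.5%) and lower at 7 (10.6%), with a median difference of 0.10. Of the ribosome biogenesis genes 11 of 24 scored bins were higher (45.8%) and 3 lower (12.5%), and the bin of Ncl, which codes for nucleolin, rose by 0.42 ± 0.04 (SE) while that of Rrp9, which codes for a protein of the U3 small nucleolar particle, fell by 0.17 ± 0.05. Of the translation factors and cofactors with pyrimidine-tract messages, 8 of 12 were higher (66.7%) and 1 lower (8.33%). Of the regulators of ribosomal protein messages, 6 of 11 were higher, among them Mtor with a rise of 0.18 ± 0.03, and 1, Rptor, was lower, by -0.16 ± 0.03. Of the ribosomal protein-like genes left out of the group, 4 of 5 scored bins were higher and none lower, and 2 of the 7 share a bin with a ribosomal protein gene.

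Contacts of ribosomal protein genes at middle distances took a larger share in Del8. The share of a bin's contacts with other bins that lay at 500 kb to under 2 Mb had a median over 73 ribosomal protein gene bins of 18.8%, 19.1% and 19.3% in the Del8 libraries, against 15.9%, 16.7% and 17.3% in the WT libraries. At 36 of the 73 (49.3%) the share was higher in Del8 and at 1 it was lower (limma on log2 shares), where the background over all 27694 bins was 45% higher and 1.21% lower. The count was near the background, and bins with a gene start stood at 50.1% higher and 0.952% lower. The median log2 difference was 0.21 at ribosomal protein gene bins and 0.18 over all bins. Without WT replicates 1 and 2 the count higher was 19 (26.0%, against 25.2% of all bins). Under the looser screen of bins it was 17 of 75 (22.7%, against 11.6% of all bins), which was not near the share of all bins. That screen raised the background from 27694 to 41342 bins but the ribosomal protein gene bins only from 73 to 75. The sets compared are thus unlike, and the gap is not read as a trait of these genes.

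**Figure D4:**
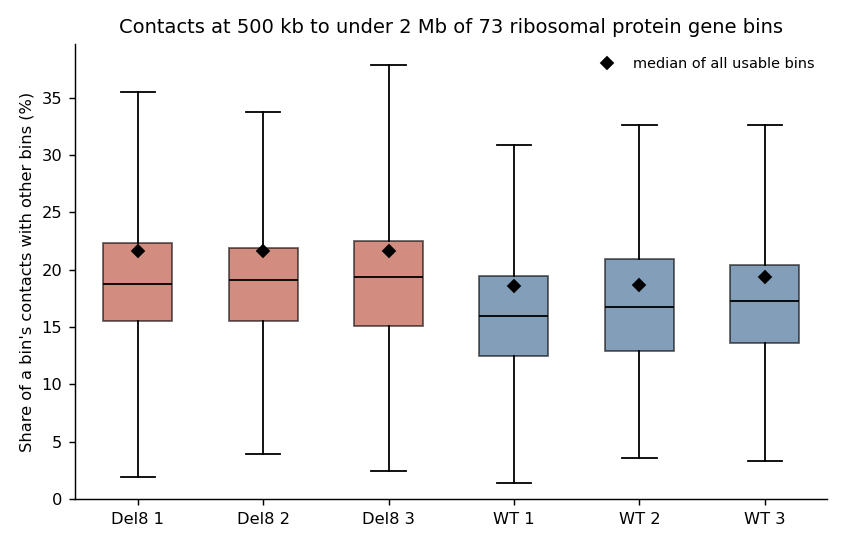
Share in percent of a bin's contacts with other bins at 500 kb to under 2 Mb, for 73 ribosomal protein gene bins in each of the 3 Del8 and 3 WT libraries; boxes span the quartiles, whiskers the whole range and diamonds mark the median of all usable bins. Box medians lie at 18.8% to 19.3% in Del8 and 15.9% to 17.3% in WT, each below the diamond of its library.

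The 6 largest rises in this share included Rpl12, Rpl36, Rps19, Rps14 and Rpl37rt. At Rpl12, whose protein forms the base of the stalk, the share was 26.2%, 26.7% and 25.4% in Del8 and 17.3%, 16.7% and 19.1% in WT, a 1.47-fold rise (adjusted p from limma 0.00017). At Rps19, the gene most often mutated in Diamond-Blackfan anaemia, it was 11.2%, 11.7% and 11.7% in Del8 and 6.66%, 8.98% and 8.31% in WT. The groups did not overlap at either gene. Rpl36 rose 1.47-fold, Rps14 1.42-fold and Rpl37rt 1.41-fold. The 1 fall was at Rpl37, with 15.2%, 13.1% and 9.98% in Del8 and 15.6%, 16.3% and 17.1% in WT, 0.771 times the WT share, with an adjusted p from limma of 0.028. This call was lost on leaving out Del8 replicate 2, Del8 replicate 3, WT replicate 2 or WT replicate 3.

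The share at 10 Mb or more was lower in Del8 at 10 of 74 ribosomal protein gene bins (13.5%) and higher at none, where the background was 11.4% lower and 0.0611% higher, again near the background. Under the looser screen of bins the count lower was 0, and 0 over all bins, with 11 ribosomal protein gene bins at an unadjusted p under 0.05. Medians over the 74 bins were 14.6%, 16.0% and 15.4% in Del8 and 17.1%, 16.6% and 20.9% in WT. Rps21 had the largest fall, with 10.8%, 12.4% and 10.8% in Del8 and 14.6%, 15.6% and 20.3% in WT, 0.679 times the WT share. Rpl8, Rps18, Rplp1, Rplp0 and Rpl38 followed, at 0.680 to 0.735 times. This count moved with the libraries used, and so did the share of all bins. It was 0 without Del8 replicate 1 and 0 without Del8 replicate 3, where 0.687% and 0.830% of all bins were lower. It was 5 without Del8 replicate 2, 18 without WT replicate 1 and 61 without WT replicates 1 and 2 together, where 4.38%, 21.3% and 67.2% of all bins were lower.

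No ribosomal protein gene bin passed the test for the other shares. At 50 kb to under 500 kb the background was 0.123% higher and 0.0505% lower, at 2 Mb to under 10 Mb 0.0036% in either direction, and within the bin 0%. Coverage, the sum of a bin's raw contacts, passed the test at none of 74 ribosomal protein gene bins in edgeR's quasi-likelihood fit, where the background was 0.158% higher and 0.0575% lower. There were 8 bins at an unadjusted p under 0.05, against 3696 of all 27819 bins. DESeq2 called 1 higher (1.35%), where 0.557% of all bins were higher. The fit without WT replicate 3 called 2 higher (2.70%), where 5.32% of all bins were higher.

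Ribosomal protein genes lay mostly on the gene-rich side of the compartment eigenvector of 250 kb bins. Among the leading vectors, the one that followed gene density most closely was taken and signed so that gene-rich bins are positive. That choice favours positive values at gene-dense bins, and bins with a gene start were not compared. Of 71 bins with a ribosomal protein gene, 58 averaged above 0 (81.7%), against 46.0% of all 5588 bins. The median was 1.11, 1.16 and 1.14 in the Del8 libraries and 1.11, 1.01 and 1.12 in the WT libraries. These groups overlapped. None of the 71 bins and none of all 5588 bins passed the limma test, a background of 0%, with 6 of the 71 at an unadjusted p under 0.05. On 6 chromosomes the eigenvectors of single libraries correlated below 0.9 with that of the summed map. On the other 13 the share above 0 was 52 of 61, against 45.8% of all bins there.

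Single bin pairs gave few calls. Of 1898 tested pairs with a ribosomal protein gene bin, up to 2 Mb apart and with a mean of 10 or more contacts, 36 (1.90%) were higher in Del8 and 12 (0.632%) lower by edgeR's quasi-likelihood test with Benjamini-Hochberg adjustment over 338601 pairs, where the background was 0.88% higher and 0.832% lower. The called pairs involve 25 of the 74 ribosomal protein gene bins, 20 of them with a higher and 10 with a lower pair. Each bin had many tested pairs, with a median of 26. The share of all bins with a called pair was not computed, so this count has no background and is not read as a trait of these bins. Called rises had a median of 1.81-fold. DESeq2 called 4 pairs higher (0.211%, against 0.152% of all pairs) and 2 lower (0.105%, against 0.201%). Leaving out 1 library at a time gave 11 to 33 higher, or 0.580% to 1.74%, where 0.311% to 0.696% of all pairs were higher, and 3 to 7 lower, with the fewest higher without Del8 replicate 2. Leaving out WT replicates 1 and 2 together gave 3 higher and 1 lower, where 0.125% of all pairs were higher and 0.129% lower.

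The 8 largest rises included pairs of Rpl31, Rpl41, Rpl8, Rps19, Rps27 and Rps18. The bin of Rpl41, which codes for the smallest ribosomal protein, had 79, 68 and 37 contacts with a bin 400 kb away in the Del8 libraries, against 9, 11 and 11 in the WT libraries, a 3.53-fold rise after correction for distance and depth. Rpl31 had 36, 24 and 27 contacts with a bin 450 kb away in Del8 and 3, 5 and 5 in WT, a 3.94-fold rise. Every Del8 count lay above every WT count at both genes, but these are raw counts. The mean raw count over tested pairs with a ribosomal protein gene bin was also higher in every Del8 library than in every WT library. A lack of overlap in raw counts therefore adds little to these calls, which rest on the corrected values. Rpl8, Rps19, Rps27 and Rps18 rose 2.77-fold to 3.16-fold. A boundary lay between the bins of 3 of these 8 pairs, those of Rpl31, Rpl8 and Rps19.

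The 8 largest falls included pairs of Rps23, Rps25, Rpl7a, Rps7, Rpl31 and, with 2 pairs, Rpl24. Rpl7a had 111, 93 and 96 contacts with a bin 100 kb away in Del8 and 102, 106 and 112 in WT, 0.608 times the WT level after correction for distance and depth, and a boundary lay between the bins. Rps23 had 17, 10 and 6 contacts with a bin 850 kb away in Del8 and 13, 16 and 18 in WT, 0.402 times. The 5 pairs of Rps25, Rps7, Rpl31 and Rpl24 stood at 0.485 to 0.658 times the WT level. Only the pair of Rpl7a had a boundary between its bins among these 8.

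Ribosomal protein genes on 1 chromosome contacted each other more than the mean pair of bins at the same distance. Over 170 pairs of ribosomal protein gene bins 2 Mb or more apart, balanced contact over the mean at the same distance was 2.12, 1.61 and 1.87 in the Del8 libraries, against 2.04, 2.00 and 2.07 in the WT libraries. The groups overlapped. For bins with 4 or more gene starts the ratio was 1.56, 1.52 and 1.56 in Del8 and 1.70, 1.71 and 1.61 in WT, and for all bins with a gene start 1.06, 1.06 and 1.05 in Del8 and 1.09 in each WT library. On raw contacts, ribosomal protein gene bins stood at 2.35 in Del8 and 2.46 in WT and bins with 4 or more gene starts at 2.36 in Del8 and 2.46 in WT, so the distance between these sets was there on balanced maps and not on raw contacts. The balanced ratio for gene-start bins was lower in Del8 than in WT in every library, whereas the scatter among Del8 libraries at ribosomal protein genes was wider than their distance from WT.

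**Figure D5:**
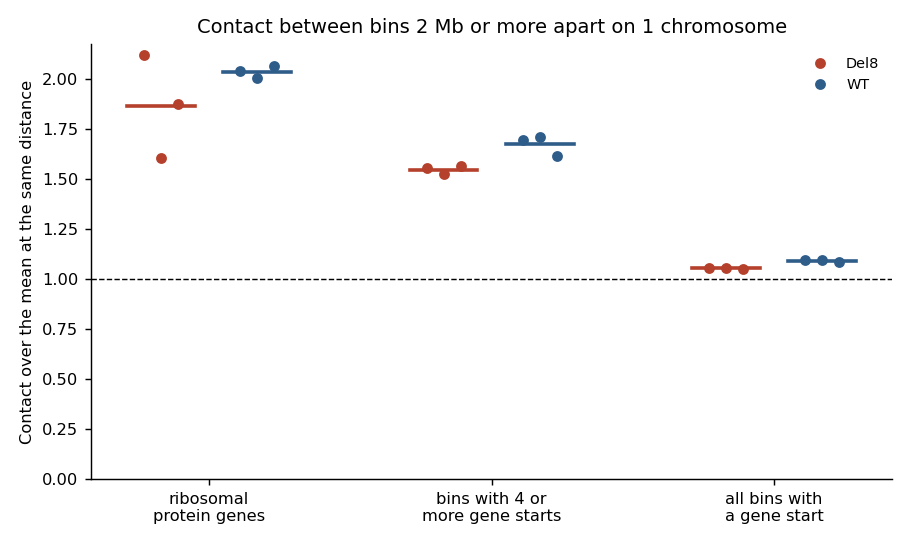
Balanced contact over the mean at the same distance, between bins 2 Mb or more apart on a chromosome, for ribosomal protein gene bins, bins with 4 or more gene starts and all bins with a gene start, Del8 left of WT; points are libraries, short lines means of 3 and the dashed line marks 1. Ribosomal protein gene bins stand at 1.61 to 2.12 in Del8 and 2.00 to 2.07 in WT, and bins with 4 or more gene starts at 1.52 to 1.56 in Del8 and 1.61 to 1.71 in WT.

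These ratios rest on few contacts. The 170 pairs held 168, 97 and 90 contacts in the Del8 libraries and 70, 80 and 125 in the WT libraries, and 55.9% to 72.4% of pairs had none in a given library. Summed over all pairs, so that chromosomes with more contacts weigh more than in the values above, the raw ratio in Del8 replicate 2 was 1.89, with an exact Poisson 95% interval of 1.53 to 2.31, and in WT replicate 1 it was 2.20, with an interval of 1.71 to 2.78, both covering counting error only. Over all libraries 110 of the 170 pairs (64.7%) were above 1, and 37 had no contact. The share above 1 was not computed for other sets of bins, so this count has no background. Where the mean at the same distance is under 1, a single contact puts a pair above 1. Rpl28 and Rpl27a, for example, had 1 contact where that mean was 0.25.

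The pair with most contacts was Rplp1 and Rpl4 on chromosome 9, 2.25 Mb apart, with 15, 3 and 1 contacts in Del8 and 2, 6 and 7 in WT. Without it the raw ratio over all libraries was 2.24, against 2.28 with it. Chromosome 7, with 14 ribosomal protein genes and 64 of the pairs, had a ratio of 2.46, chromosome 17 of 2.90, chromosome 9 of 2.39 and chromosome 11 of 2.12, while the 9 pairs on chromosome 15 were at 0.984.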

How the data were processed

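Each library came as 1 deposited table of raw counts, which list how many contacts joined every pair of 50 kb bins. Coordinates are of mm10 (per the submitters' processing notes), and the sources used here name neither aligner nor read-pair filters. Genes came from RefSeq (GRCm38.p6, the same coordinates). The members, lists and tests were chosen with earlier results of these data known, and the bin screen was chosen after seeing the data.

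A bin was usable if its coverage, scaled to well-covered bins, was in every library at least 0.5 of the third highest library and over 0.1 of the scale of the library itself. Balancing used iterative correction on each chromosome, leaving out the diagonal. Boundaries were minima of the insulation score with a prominence of 0.2 or more. Scores, log2 band shares and eigenvectors were tested with limma 3.58.1, which draws each bin's own variance between libraries towards a trend fitted over all bins. Coverage and pairs were tested with edgeR 4.0.16, where pairs carry offsets for the mean count at each distance on each chromosome, and DESeq2 1.42.0 was the alternative. R 4.3.3, numpy 2.4.6 and pandas 2.3.3 were used. The limma fit of the insulation score and the edgeR fits of coverage and pairs were checked on simulated data. The fits of band shares and eigenvectors and those of DESeq2 were not. Called means an adjusted p under 0.05 (Benjamini-Hochberg). With 3 libraries a group, an exact permutation test cannot go below a two-sided p of 0.10, so none was run. Genes were named by rule: the 10 largest rises and falls of the score, every boundary bin, up to 6 bins each way per band and 8 pairs each way. Some members that meet this rule are not reported here by name, and remain in the counts. The p-values measure the spread between these libraries.

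Replicate numbers are shared between Del8 and WT, but deviations of same-numbered libraries did not go together. Promoter windows were taken at the start nearest the gene's own 5′ end.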

Additional observations from a re-analysis of the deposited data

How the results depend on the processing

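The insulation counts at ribosomal protein gene bins, 35 higher in Del8 and 14 lower, were within 1.5 times under every alternative run except the looser screen of bins, which gave 0 and 0, but the bins called were not all the same. With a 250 kb square 13 of the 49 called bins did not pass, and with a 1 Mb square 6 of 43 did not pass and 2 reversed. Without both WT replicates 1 and 2, which leaves 1 WT library, 6 of 49 did not pass. Leaving out 1 library at a time gave 31 to 37 higher and 13 to 14 lower, and 43 of the 49 called bins kept their call each time. The exceptions included Rpl5, Rpl6, Rpl11 and Rplp2. Under the looser screen the difference reversed to 3.49 at Rpl31, 1.43 at Rpl7a, 1.01 at Rps19, 0.38 at Rpl35, -0.081 at Rpl11, -0.20 at Rpl5, -0.087 at Rplp0, -0.10 at Rpl6, -0.10 at Rps13 and -0.0050 at Rplp2. The cause was not tested. Centring each library on its median moved the split over all bins to 28.6% higher and 35.1% lower.

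For the share at 500 kb to under 2 Mb, the looser screen gave 17 higher and 0 lower, the fit without both WT replicates 1 and 2 gave 19 and 0, and leaving out 1 library at a time gave 28 to 35 higher and 0 to 2 lower. For the share at 10 Mb or more, the count lower was 0 under the looser screen, 61 without both WT replicates 1 and 2, and 0 to 18 on leaving out 1 library. Coverage gave 1 bin higher with DESeq2 (1.35%, against 0.557% of all bins). On leaving out 1 library it gave 0 to 2 higher, where 0.126% to 5.32% of all bins were higher. Bin pairs gave 120 higher (6.35%, against 4.70% of all pairs) and 47 lower (2.49%, against 4.12%) with 100 kb bins. DESeq2 gave 4 higher (0.211%, against 0.152%) and 2 lower (0.105%, against 0.201%). With a mean count of 1 or more, 21 were higher (0.450%, against 0.261%). Leaving out 1 library gave 11 to 33 higher, where 0.311% to 0.696% of all pairs were higher. It gave 3 to 7 lower (0.158% to 0.369%), where 0.294% to 0.613% of all pairs were lower. Without both WT replicates 1 and 2 the median log2 difference was 0.06, against 0.01 over all pairs. Contact between ribosomal protein gene bins was 2.35 in Del8 and 2.46 in WT in raw contacts, where bins with 4 or more gene starts were at 2.36 in Del8 and 2.46 in WT, 1.72 in Del8 and 1.80 in WT from 500 kb up, and 1.97 in Del8 and 2.15 in WT without neighbours.

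Same-numbered Del8 and WT libraries did not deviate together, with correlations of -0.04, -0.02 and -0.08, so the numbers were not taken as pairs. With a replicate block the insulation counts were 34 higher and 14 lower, the share at 10 Mb or more was lower at 6 bins and coverage was higher at 1.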
